A study of Mus musculus with 34 samples.

Results

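The nuclear genes that encode subunits of the respiratory chain were followed through the brain of the 3-day-old mouse. Members were all array probes whose RefSeq accession belonged to a gene with a symbol starting with Ndufa, Ndufb, Ndufc, Ndufs, Ndufv, Uqcr, Cox4, Cox5, Cox6, Cox7 or Cox8, or to Sdha, Sdhb, Sdhc or Sdhd. Assembly factors of the Ndufaf type and pseudogenes were left out. The rule found 68 genes of 20145 named genes, measured by 87 of the 55681 probes of the array, 26582 of which could be named. Complex I held 42 probes of 36 genes, Complex II 6 probes of 4 genes, Complex III 14 probes of 8 genes and Complex IV 25 probes of 20 genes. Ndufa4 and Ndufa4l2 were counted with Complex IV.

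The respiratory chain sits in the inner mitochondrial membrane. Complex I takes electrons from NADH and Complex II, which is also an enzyme of the tricarboxylic acid cycle, takes them from succinate. Complex III passes them to cytochrome c and Complex IV to oxygen, and Complexes I, III and IV pump the protons that drive ATP synthase. Most subunits are encoded in the nucleus, Complex II entirely so, and several Complex IV subunits exist as alternative isoforms that are known from muscle, testis or lung.

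The samples were 34 fractions, each on 1 single-colour array, from 3 male C57BL/6J mice aged 3 days and with no treatment. Every brain was cut along 1 axis into fractions of 500 μm, giving 15 coronal fractions from mouse 1, 8 horizontal fractions from mouse 2 and 11 sagittal fractions from mouse 3. Sagittal fractions 1 and 11 each pooled 2 cut fractions. No fraction was repeated in a 2nd animal, so axis and mouse cannot be told apart, and the p-values measure the scatter of fractions of 1 brain around a line.

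The 34 arrays had between 29598 and 37091 of 59305 spots well above background and 0 saturated spots. Values are log2 signals less the 75th percentile of the array, called log2 normalized signal. A probe was tested when each of the 3 series held a fraction with a signal well above background. That left 34186 probes, among them 86 of the 87 members, and 84 members were detected in all 34 fractions. The exception was the probe of Cox8c, an isoform known from testis, which was well above background only in sagittal fraction 6. Members were bright: 75 of the 86 lay among the brightest 25% of tested probes. Region markers placed the axes. Of 9 genes of a hindbrain and spinal cord list all 9 fell with coronal fraction number, and of 8 telencephalic genes all 8 rose, so high coronal numbers are the telencephalic end. With distance from the middle sagittal fraction, 7 of the 9 hindbrain genes fell and 7 of the 8 telencephalic genes rose. Fraction 6 was taken as the middle because it is the central number of 11, and the labels do not give the midline. Mirror fractions were not alike in the markers: in fractions 7 to 11 less fractions 1 to 5, the median difference was 2.11 log2 for the hindbrain list, 0.396 for a midbrain list and 0.351 for a thalamus list, with 0 genes called.

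Along the coronal axis 37 of 86 member probes rose toward the telencephalic end and 1 fell on the 75th-percentile scale (limma, adjusted p under 0.05), against 18.9% of all tested probes that rose and 9.44% that fell. Among the brightest 25% of probes 35.8% rose, compared with 43.0% of the members. The median slope was 0.029 log2 per fraction for members, 0.023 for the brightest 25% and 0.009 for all tested probes. Bright probes in general thus rose more often than all probes did, members included. The arrays also differed in brightness. The mean of the members without alternative isoforms was highest at 5.99 in fraction 15, where the 75th percentile of the array was 8.29 log2. It was lowest at 5.33 in fraction 9, where the percentile was 9.38. Fraction 1, with a percentile of 8.48, had a mean of only 5.40. The part of array brightness in the rise was not tested.

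By role, 20 of 35 supernumerary Complex I probes rose, as did 4 of 7 catalytic core probes of Complex I, 4 of 14 of Complex III, 5 of 14 general Complex IV probes and 2 of 6 of Complex II. Supernumerary subunits surround the catalytic core and take part in its assembly and stability. Ndufa11, a membrane subunit of Complex I, had its lowest coronal value of 4.12 in fraction 1, a median of 4.53 and its highest of 5.29 in fraction 15. It rose by 0.065 ± 0.012 log2 per fraction (SE, n = 15, limma adjusted p = 0.00108). Cox7c, a small subunit of Complex IV, ranged from 5.52 in fraction 3 through a median of 5.90 to 6.60 in fraction 15, by its brightest probe. Its slope was 0.057 ± 0.010 (limma adjusted p = 0.000841). Cox4i1, the general isoform of a regulatory Complex IV subunit, went from 7.61 in fraction 4 through 7.81 to 8.61 in fraction 15, with a slope of 0.060 ± 0.014 (limma adjusted p = 0.00515). Within slide 2, which holds fractions 1 to 8, its slope was turned, at -0.013, and it was -0.018 there after quantile normalization, neither of them called. For these 3 genes the highest fraction was the last one, and the lowest was among the first 4. Ndufa7, a supernumerary subunit of Complex I, rose by 0.056 ± 0.012 per fraction (limma adjusted p = 0.00311). The calls of these 4 genes held with any 1 coronal fraction left out, and none held with the slide as a block.

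The catalytic core of Complex I carries its flavin and iron-sulfur clusters. Ndufv1, which binds NADH, rose by 0.041 ± 0.011 per coronal fraction (limma adjusted p = 0.0146), Ndufs7 by 0.037 ± 0.011 (limma adjusted p = 0.0187), Ndufs3 by 0.032 ± 0.010 (limma adjusted p = 0.0277) and Ndufv2 by 0.029 ± 0.009 (limma adjusted p = 0.0209). Ndufs8 had a slope of 0.023, which did not pass the threshold. Ndufs1, the largest core subunit, had a slope of -0.003 ± 0.010. In Complex III the core proteins Uqcrc1 and Uqcrc2 had slopes of 0.042 ± 0.015 and 0.005 ± 0.008, and the Rieske iron-sulfur protein Uqcrfs1 of -0.015 ± 0.010, with none of the 3 past the threshold.

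Scaling decided most of the coronal calls. After quantile normalization, which gives all arrays the same distribution, 4 member probes rose and 4 fell, against 12.5% of all probes that rose and 11.1% that fell. The median slope of the members was then 0.002, and 5 of the 8 calls were shared in direction with the 38 calls before it. Scaled to the median of the tested members themselves, which removes their common movement by construction, 2 rose and 5 fell, against 4.08% and 18.3% of all probes. With the slide as a block 0 members were called, against 0.331% of all probes higher and 0.404% lower. In that fit 17 members and 4581 of all 34186 probes had an unadjusted limma p under 0.05. The median slope of the members was 0.037. The blocked fit on quantile-normalized values also called 0 members, against 114 of all probes higher and 159 lower. Its median slope for members was 0.012. Coronal fractions 1 to 8 shared slide 2 and most of the others slide 3, so slide and position largely cannot be told apart. Within slide 2 the counts were 5 higher and 3 lower, against 11.3% and 7.72% of all probes. Within slide 3 they were 1 higher and 0 lower, against 2.75% and 3.39%. With the column of the array on its slide as a block, 31 members rose and 0 fell, against 15.3% and 7.88%. Without coronal fraction 15, 20 member probes rose and 3 fell, while of all 34186 tested probes 6247 rose and 3316 fell.

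**Figure D1:**
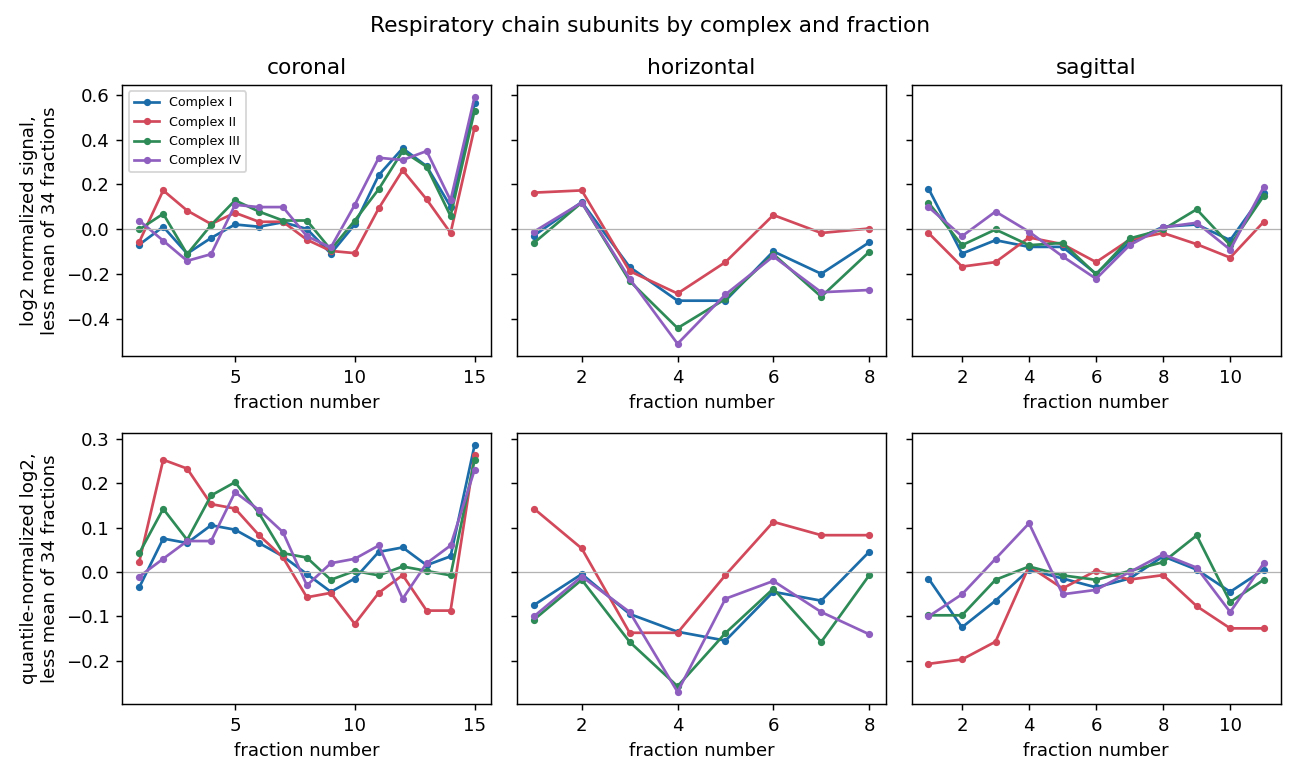
Mean of the member probes of each complex, without the alternative isoforms, by fraction number in the coronal, horizontal and sagittal axes, less the mean over the 34 fractions (log2; upper panels 75th-percentile scaling, lower panels quantile normalization). In the upper left panel all 4 complexes are highest in coronal fraction 15, and in the lower right panel Complex II is lowest in sagittal fractions 1 to 3.

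In the sagittal axis the same kind of rise was seen with distance from the middle fraction. Of 86 member probes 27 rose and 0 fell, against 18.3% and 9.97% of all tested probes, and 36.8% of the brightest 25% of probes rose, compared with 31.4% of the members. The median slope was 0.052 log2 per fraction for members, 0.046 for the brightest 25% and 0.014 for all. The mean of the members without alternative isoforms was lowest at 5.23 in fraction 6, on an array with a 75th percentile of 9.35. It was highest at 5.59 in fraction 11, with a percentile of 8.85. Fraction 4, also at 9.35, had a mean of 5.37. The part of array brightness was not tested here either. Cox7c went from 5.59 in fraction 6 through a median of 5.86 to 6.13 in fraction 11, a slope of 0.092 ± 0.015 (SE, n = 11, limma adjusted p = 0.00174), and this call held with any 1 fraction left out. Ndufa2, a supernumerary Complex I subunit, went from 6.36 in fraction 6 through 6.52 to 6.94 in fraction 1, with a slope of 0.092 ± 0.025 (limma adjusted p = 0.0192). Both were lowest in the middle fraction and highest in an outermost one. The Ndufa2 call was lost without fraction 1 or without fraction 11 (adjusted p up to 0.0732) and with the slide column as a block (adjusted p = 0.0502).

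After quantile normalization 3 member probes rose and 7 fell with sagittal distance, against 13.4% and 10.6% of all probes, with 3 calls shared with the 27. Scaled to the member median, 1 rose and 4 fell, against 4.54% and 16.7% of all. Without the pooled fractions 1 and 11, 2 member probes rose and 0 fell, against 5.7% and 4.34% of all probes. Within slide 4, which holds fractions 2 to 9, 1 rose and 0 fell, against 3.24% and 2.47%. Fraction 1 was on slide 3 and fractions 10 and 11 on slide 5. Slide and distance from the middle thus partly cannot be told apart. With the slide as a block 1 member rose and 0 fell, while of all 34186 probes 1215 rose and 927 fell. With the slide column as a block 17 rose and 0 fell, against 14.4% and 8.89%. Leaving out fraction 1, 11 or 6 alone left 9, 7 and 10 calls. Of all 34186 tested probes 4085, 4456 and 4893 rose in these runs, and 2406, 2664 and 3209 fell.

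**Figure D2:**
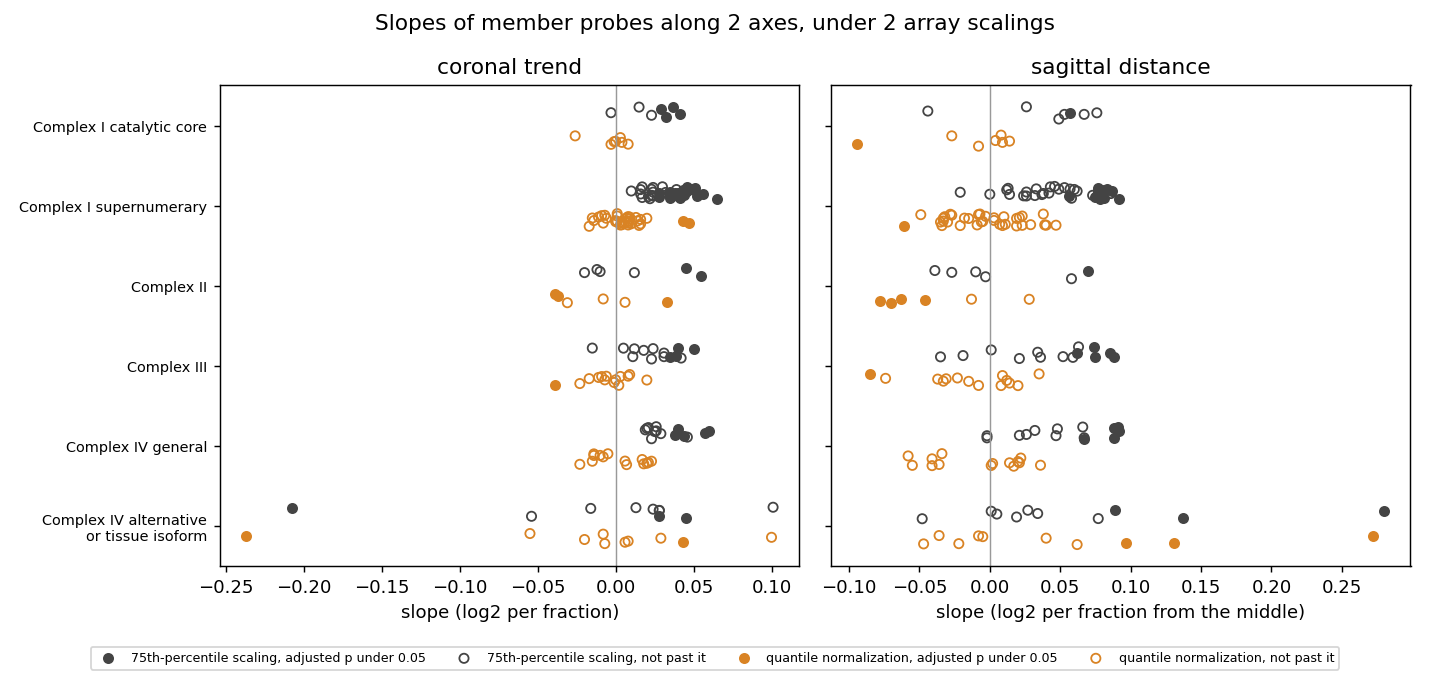
Slopes of the 86 tested member probes by role along the coronal axis (log2 per fraction) and with distance from the middle sagittal fraction (log2 per fraction), under 75th-percentile scaling and quantile normalization; filled points had a limma adjusted p under 0.05. Most slopes move to the left under quantile normalization, where Complex II has 4 filled points below 0 in the sagittal panel.

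Along the horizontal axis 0 members were called, against 1.76% of all tested probes in either direction. By limma 1 member had an unadjusted p under 0.05, against 5829 of all 34186 tested probes. It was Ndufa4, with a slope of -0.082 ± 0.026 per fraction (limma adjusted p = 0.167). Limma on quantile-normalized values also called 0 members. All 4 complexes were lowest in horizontal fraction 4 on the 75th-percentile scale and highest in fraction 2. Between the sides of the brain, sagittal fractions 7 to 11 less their mirror fractions 1 to 5, 0 members were called, against 0.0% of all tested probes. By limma 2 members had an unadjusted p under 0.05, Cox4i2 and Ndufa5, against 3263 of all 34186 tested probes. Limma on quantile-normalized values also called 0 members. The median difference of the members was 0.040 log2, with 68 of 86 above 0. That of all tested probes was -0.008, with 16096 of 34186 above 0.

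In Complex II, Sdha, Sdhc and Sdhd had slopes near or below 0 where many other members rose, and no test of the difference between complexes was run. The median coronal slope of its 6 probes was 0.001 log2 per fraction, against 0.035 for the supernumerary Complex I probes, and their median sagittal slope was -0.007 against 0.056. After quantile normalization 4 of the 6 probes, 2 of them for Sdhc, fell with sagittal distance, against 10.6% of all probes. Along the coronal axis 2 of 6 fell and 1 rose, against 11.1% and 12.5% of all probes. Complex II thus held 4 of the 7 sagittal falls on that scale, and the other 3 were in Ndufs1, Uqcrfs1 and Ndufb8.

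Sdha, the catalytic flavoprotein that oxidizes succinate, had sagittal values from 4.33 in fraction 2 through a median of 4.47 to 4.61 in fraction 5 on the 75th-percentile scale. Its slope was -0.027 ± 0.019 there (limma adjusted p = 0.319) and -0.070 ± 0.015 after quantile normalization (limma adjusted p = 0.00743). Sdhc and Sdhd, the membrane anchors of the complex, fell by 0.046 ± 0.012 (limma adjusted p = 0.0218) and 0.063 ± 0.015 (limma adjusted p = 0.0127) with sagittal distance after quantile normalization. The 2nd probe of Sdhc fell too, by 0.078 ± 0.019 (limma adjusted p = 0.0132). Sdhb, the iron-sulfur subunit, did not follow them. Its brightest probe had a slope of -0.013 ± 0.017 on that scale, and both of its probes rose along the coronal axis before quantile normalization, by 0.045 ± 0.012 (limma adjusted p = 0.0146) and 0.055 ± 0.013 (limma adjusted p = 0.00677).

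A few subunits of other complexes shared the pattern of Sdha, Sdhc and Sdhd. Uqcrfs1 fell by 0.085 ± 0.018 per sagittal fraction (limma adjusted p = 0.00713) and by 0.039 ± 0.010 per coronal fraction (limma adjusted p = 0.0118) after quantile normalization. Ndufs1 fell by 0.094 ± 0.018 per sagittal fraction (limma adjusted p = 0.00488), and its coronal slope of -0.026 ± 0.010 did not pass (limma adjusted p = 0.0718). Sdhd fell by 0.037 ± 0.010 per coronal fraction (limma adjusted p = 0.015). On the 75th-percentile scale Uqcrfs1 ran from 4.81 in coronal fraction 10 to 5.31 in fraction 5, Ndufs1 from 4.58 in fraction 10 to 5.06 in fraction 4, and Sdhd from 4.96 in fraction 10 to 5.43 in fraction 4. All 3 were thus highest in coronal fraction 4 or 5 and lowest in fraction 10, and in fraction 1, at the hindbrain end, they were below their medians, at 4.99, 4.64 and 5.08. Scaled to the member median, Sdha, Sdhc, Uqcrfs1 and Ndufs1 fell with sagittal distance as well. None of these falls was called within slide 4 or without the outermost fractions, where Sdha had quantile-normalized slopes of -0.071 and -0.070. With the slide column as a block the sagittal falls of Sdha, Sdhd, Uqcrfs1, Ndufs1 and the dimmer Sdhc probe passed after quantile normalization (limma adjusted p from 0.00737 to 0.0384), and that of the brighter Sdhc probe did not (limma adjusted p = 0.0626). None of the coronal falls was called within 1 slide, where the quantile-normalized slopes in slides 2 and 3 were -0.005 and -0.007 for Uqcrfs1, -0.017 and -0.003 for Sdhd, and -0.035 and 0.024 for the dimmer probe of Sdhc.

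**Figure D3:**
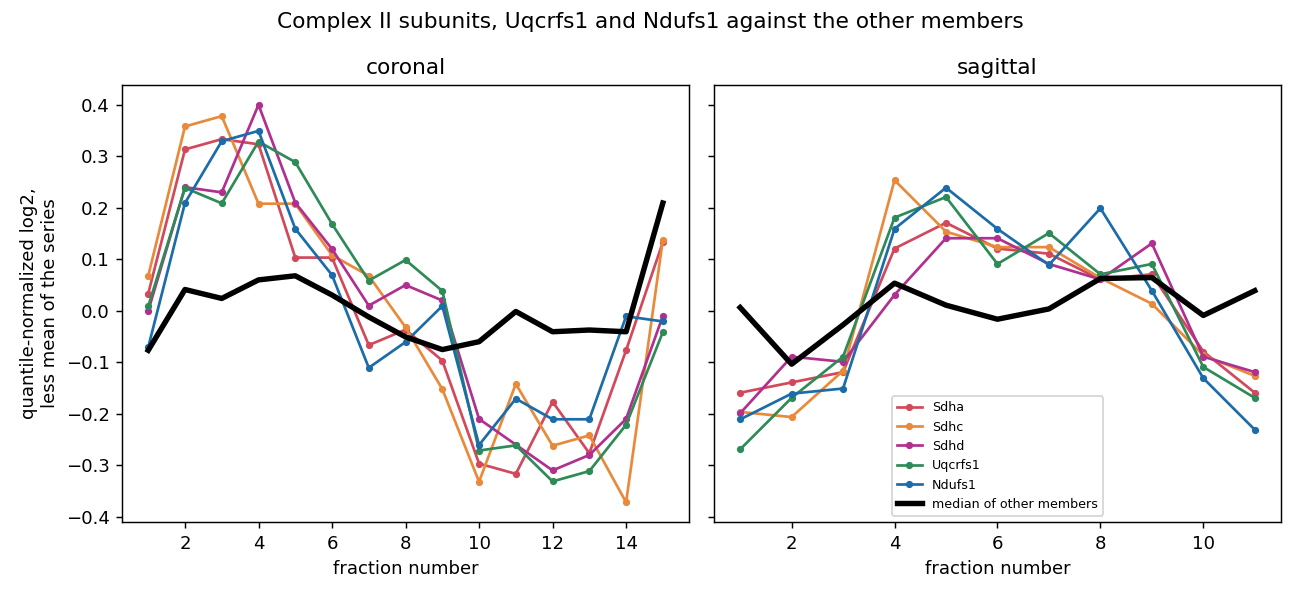
Quantile-normalized log2 signal of Sdha, Sdhc (its dimmer probe), Sdhd, Uqcrfs1 and Ndufs1 by coronal and sagittal fraction number, each less its mean over the series, with the median of the other members in black; these genes were picked after their values were seen. The 5 genes lie above the black line in coronal fractions 2 to 5 and below it in sagittal fractions 10 and 11.

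In each bulk fraction, fewer cells of a type and less RNA per cell cannot be told apart. Markers that moved with the same axes include newborn neuron genes, of which 4 of 6 rose along the coronal axis, where 18.9% of all probes rose. With sagittal distance 3 of the 6 rose and 1 fell, against 18.3% and 9.97%. A list of 13 general neuron genes went both ways. Of these 3 rose and 4 fell along the coronal axis, and 4 rose and 4 fell with sagittal distance. After quantile normalization 1 rose and 5 fell along the coronal axis, and 2 rose and 5 fell with sagittal distance. Of 9 oligodendrocyte lineage genes 5 fell and 0 rose with sagittal distance, where 9.97% of all probes fell. The summed level ran from 5.22 to 7.14 log2 over the coronal fractions for the newborn neuron list and from 4.97 to 5.88 over the sagittal fractions for the oligodendrocyte list. Of 8 astrocyte and radial glia genes 3 fell along the coronal axis and 2 with sagittal distance, where 9.44% and 9.97% of all probes fell. After quantile normalization 4 and 3 fell, against 11.1% and 10.6% of all probes. Their summed level was lowest at 7.58 in coronal fraction 13 but highest at 8.94 in coronal fraction 15, at the telencephalic end. Over the sagittal fractions it ran from 7.51 in fraction 1 to 8.03 in fraction 6. Erythroid genes rose with sagittal distance in 4 of 5 cases, against 18.3% of all probes, with a summed level of 2.5 to 4.78. The part of these markers in the result was not tested.

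The alternative isoforms of Complex IV include the most variable members. Cox6a2, an isoform known from heart and skeletal muscle, had the largest SD of the members detected in all fractions, 0.75 log2 over the 34 fractions. Its coronal values lay between -0.92 and -0.50 in fractions 1 to 5, between 0.66 and 1.38 in fractions 6 to 13, and at -0.53 and 0.05 in fractions 14 and 15. In the sagittal series it was lowest at 0.08 in fraction 6, had a median of 1.18 and was highest at 1.67 in fraction 1. The 3 middle sagittal fractions were at 0.22, 0.08 and 0.26, and the other 8 began at 0.99. This split was drawn from these same values, and how many of all tested probes separate likewise was not counted. The slope of Cox6a2 with sagittal distance was 0.28 ± 0.044 (SE, n = 11, limma adjusted p = 0.00142). Of the 23 named slopes it was the only one that kept its call in each alternative run on single slopes, with values from 0.24 to 0.34, including within slide 4 and without fractions 1 and 11. Its coronal slope of 0.10 ± 0.042 did not pass (limma adjusted p = 0.0872), with 0.33 within slide 2 (limma adjusted p = 0.0157) and -0.203 within slide 3 (limma adjusted p = 0.126). The general isoform Cox6a1 ran only from 8.87 to 9.44 over the sagittal fractions.

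Ndufa4l2, a paralog of the Complex IV subunit Ndufa4, ran from 0.13 in sagittal fraction 4 through 0.53 to 1.24 in fraction 1, and rose by 0.14 ± 0.041 per fraction (limma adjusted p = 0.0277). It was also high at 1.16 in coronal fraction 14 and at 0.98 and 0.94 in horizontal fractions 1 and 8. Cox4i2, an isoform known from lung, ran from -1.73 in sagittal fraction 6 through -1.47 to -0.94 in fraction 1, and rose by 0.089 ± 0.030 (limma adjusted p = 0.0496). Both isoforms were thus highest in an outermost sagittal fraction. The Ndufa4l2 call was lost without sagittal fraction 1, 5, 7 or 11 and the Cox4i2 call without any of 1 to 4, 6 to 9 or 11, and both were lost with the slide column as a block (limma adjusted p = 0.0522 and 0.109). Of 6 endothelial genes 2 rose with sagittal distance, where 18.3% of all probes rose, and 3 rose after quantile normalization, against 13.4%. The part of these genes in the result was not tested. The general counterparts Ndufa4 and Cox4i1 had sagittal slopes of 0.067 ± 0.024 (limma adjusted p = 0.0579) and 0.091 ± 0.021 (limma adjusted p = 0.00855).

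Cox8b, the isoform of heart and skeletal muscle, was the 1 member that fell along the coronal axis, by 0.21 ± 0.072 per fraction (limma adjusted p = 0.0427). It was detected in 10 of 15 coronal, 6 of 8 horizontal and 5 of 11 sagittal fractions. Its values were -0.65 in coronal fraction 1 and -0.79 in fraction 6, with a median of -4.48 and a lowest value of -6.39 in fraction 14, and in the horizontal series it peaked at -1.16 in fraction 5. The level was therefore high in single fractions and not along a gradient. The call was lost without coronal fraction 1, 2, 7 or any of 9 to 14 (adjusted p up to 0.144), under normexp background correction and with the slide or the slide column as a block. Skeletal muscle genes peaked in some of the same fractions. Tnni2, the fast muscle troponin I, was highest at 2.44 in coronal fraction 6 and at 0.96 in horizontal fraction 5, and its r with Cox8b was 0.79 over the 34 fractions, which share axes and slides. The other 5 tested genes of the list had lower r with Cox8b, 0.49 for Tnnt3, 0.42 for Myh8, 0.33 for Acta1, 0.13 for Myh3 and 0.11 for Actn3. Myh3 and Actn3 were highest in coronal fractions 8 and 3. The summed level of the 6 measured muscle genes ran from 1.23 to 3.64 log2 over the coronal fractions, highest in fraction 6, from 1.30 to 2.69 over the horizontal fractions, highest in fraction 5, and from 1.37 to 1.79 over the sagittal ones. Their part in the result was not tested.

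Cox6b2, Cox7a1 and Cox7b2 had no call. Cox6b2, known from testis, had coronal and sagittal slopes of -0.016 and 0.001, and Cox7a1, known from muscle, of 0.013 and 0.077. Cox7b2, known from testis, was dim, at -5.55 to -3.52 over the coronal fractions and not well above background in 6 of them. Their general counterparts Cox6b1 and Cox7a2 rose along the coronal axis, by 0.044 ± 0.014 (limma adjusted p = 0.0319) and 0.040 ± 0.010 (limma adjusted p = 0.0109), while Cox7b and Cox8a had slopes of 0.026 and 0.029 that did not pass. The brightest probe of Cox7a2l, linked to the joining of Complexes III and IV, rose by 0.028 ± 0.009 (limma adjusted p = 0.0336).

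**Figure D4:**
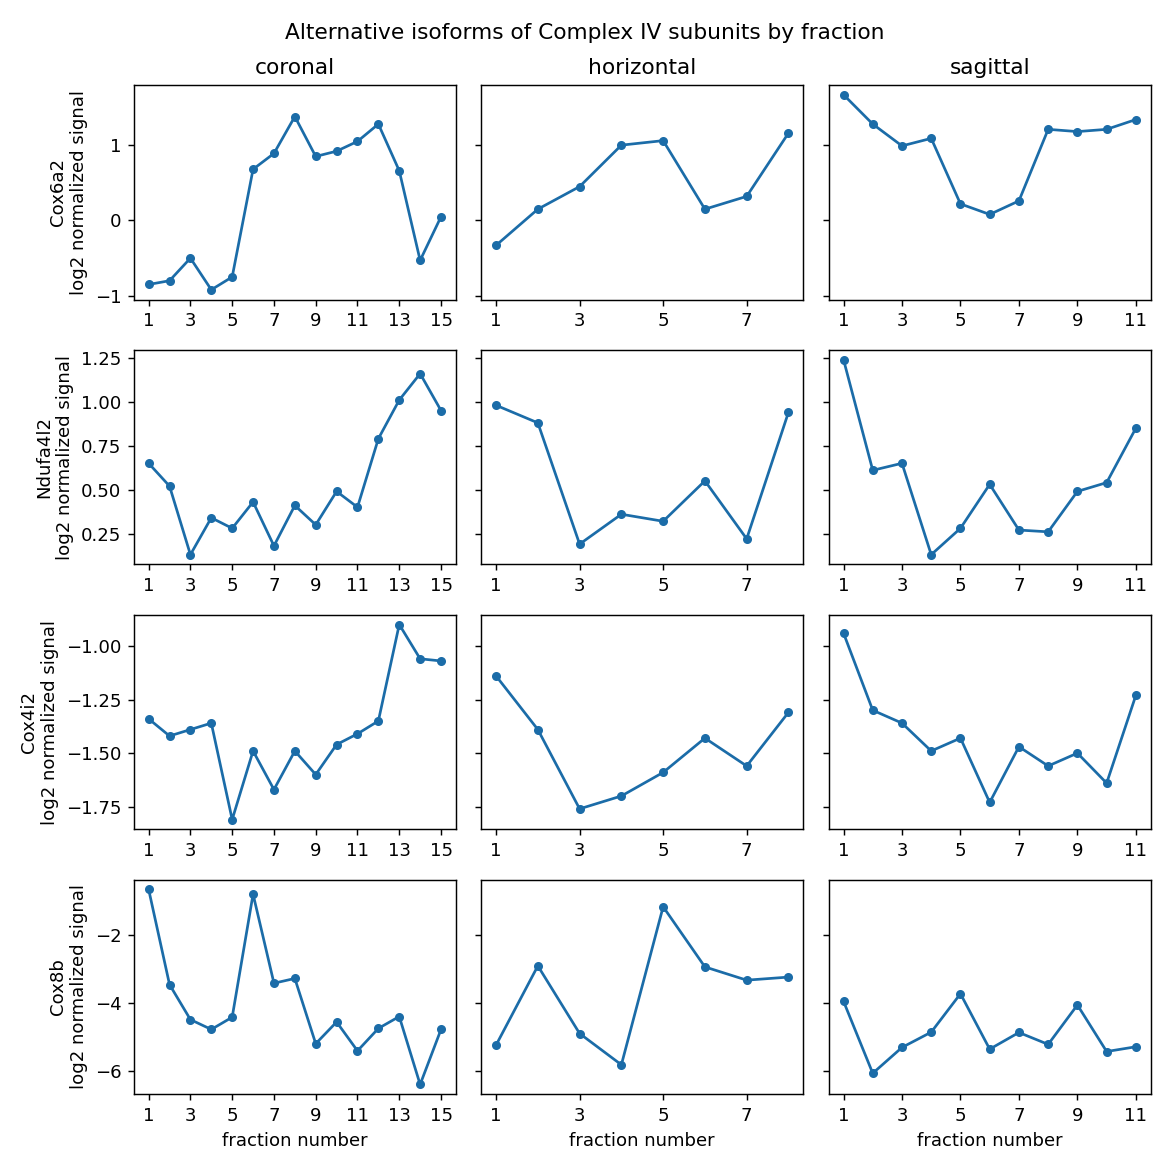
Log2 normalized signal of Cox6a2, Ndufa4l2, Cox4i2 and Cox8b by fraction number in the 3 series; each point is 1 array. Cox6a2 steps up between coronal fractions 5 and 6 and dips in the middle sagittal fractions, whereas Cox8b peaks in coronal fractions 1 and 6.

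Apart from these isoforms the members varied little. The median SD over the 34 fractions was 0.234 log2 for the tested members, 0.314 for all tested probes and 0.228 for the brightest 25%, and after quantile normalization it was 0.157, 0.310 and 0.192. The steadiest members were Uqcrc2 with an SD of 0.105, Ndufs1 with 0.119 and Sdhd with 0.132. After Cox6a2 the most variable of those detected everywhere were 2 of the 3 probes of Cox7c, at 0.507 and 0.340, and 2 probes of Uqcrb, a small Complex III subunit, at 0.354 and 0.335. Part of this spread went with the position of the array on its slide, which has 4 columns. The Cox7c probe with the SD of 0.507 lay between 3.90 and 4.59 on the 7 arrays of column 4 and between 5.07 and 6.09 on all others, with no overlap. A probe of Ndufb5, a supernumerary Complex I subunit, did likewise, at 4.47 to 4.79 against 4.88 to 5.72. These were 2 of 86 member probes, and among all 34186 tested probes 134 were lower and 31 higher on every array of column 4. One Uqcrb probe ran from 4.66 to 5.26 in column 4 against 5.15 to 6.15 elsewhere, and another from 3.69 to 4.89 in column 3 against 4.41 to 5.22. The sagittal slopes of the 3 Cox7c probes were 0.092, -0.002 and -0.002, and 0.089, 0.023 and 0.008 with the slide column as a block. Of the 15 genes with several probes, 1 had coronal slopes and 3 had sagittal slopes of opposite sign, and 0 had opposite slopes that were both called.

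Members were compared by Pearson's r over the 34 fractions, which share brains and slides. Of 3632 pairs of probes of different genes, 437 or 12.0% reached an r of 0.85, against 0.149% of pairs of all tested probes and 1.34% of pairs of the brightest 25%, and the median r was 0.607, 0.017 and 0.161. After quantile normalization 17 pairs or 0.468% reached it, against 0.061% and 0.232%, and the median r was 0.248. The closest pair was Ndufb7 and Cox4i1 at 0.973 before, and Sdhd and Uqcrfs1 at 0.928 after. On the 75th-percentile scale the median r within Complex I was 0.691, between Complexes I and III 0.661 and between Complexes II and IV 0.316. Uqcrq and Uqcr11, small Complex III subunits, followed the mean of the other members most closely, at 0.971 and 0.965, while Ndufs1 had 0.066, Sdha 0.183 and Cox6a2 0.022. The median level of the members followed that of the brightest 25% of probes at an r of 0.672 over the 34 fractions.

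**Figure D5:**
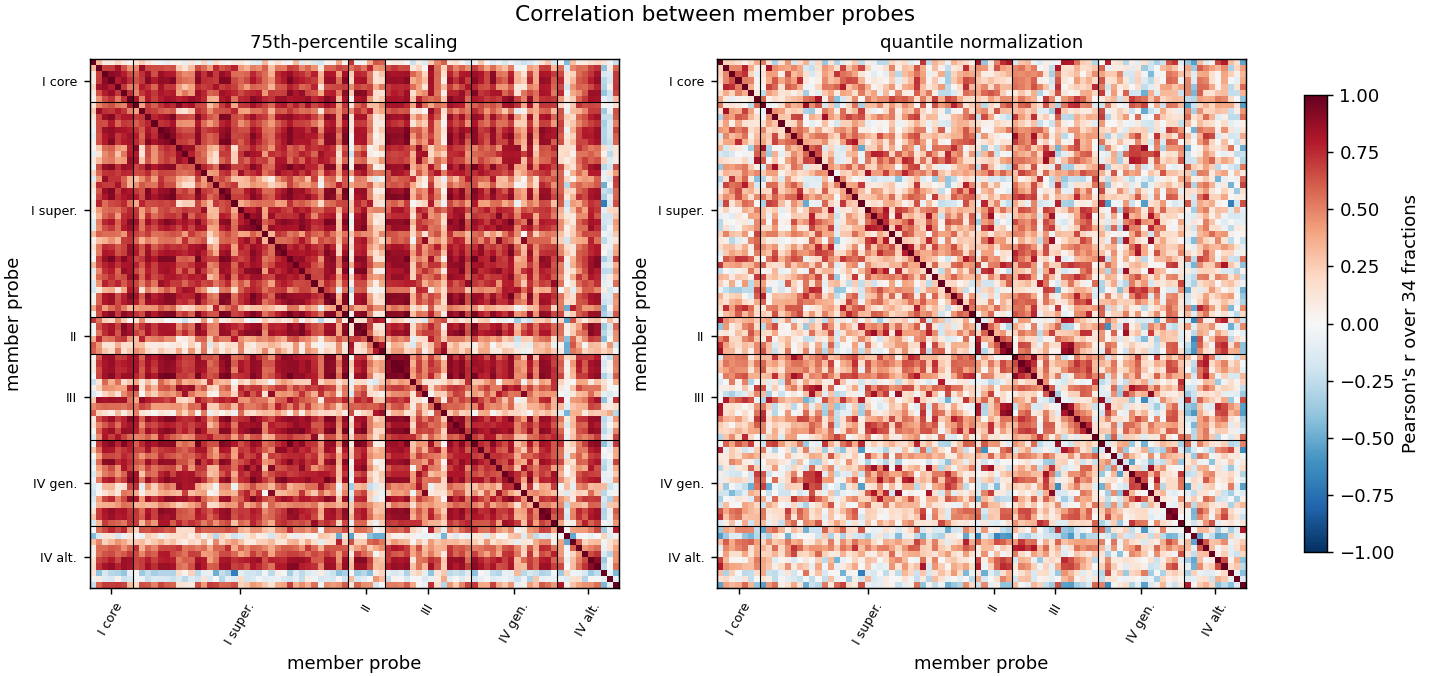
Pearson's r between the 86 tested member probes over 34 fractions, ordered by role (Complex I core and supernumerary, II, III, IV general and alternative), under 75th-percentile scaling and quantile normalization. The left panel has 437 pairs of different genes at 0.85 or more and the right panel 17, and pale bands mark Cox6a2, Cox8b and part of Complex II.

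Calls in most related lists also changed with the scaling, though not in the same way. Of 18 measured ATP synthase genes, the enzyme that uses the proton gradient, 10 rose and 0 fell along the coronal axis and 8 rose with sagittal distance, and after quantile normalization 0 rose and 2 and 3 fell. The shares of all probes that rose were 18.9% and 18.3% before it, and 11.1% and 10.6% fell after it, so 2 of 18 is close to the share of all probes. The largest coronal slopes were those of Atpif1, an inhibitor of the enzyme, at 0.062, Atp5md at 0.051 and Atp5e at 0.043. A tricarboxylic acid cycle list of 16 genes included the pyruvate dehydrogenase genes Dlat and Pdha1. Of the 16, 1 fell along the coronal axis and 0 were called with sagittal distance. After quantile normalization 6 fell with sagittal distance, among them Dlat at -0.086 and Fh1 at -0.085. Pdha1 had a slope of -0.080 that did not pass. Of 16 glycolysis genes 2 rose along the coronal axis, and after quantile normalization 3 fell there and 6 fell with sagittal distance. Of 36 assembly factors 12 rose and 1 fell both along the coronal axis and with sagittal distance, with 0 called along the horizontal axis. After quantile normalization 7 and 6 rose, against 12.5% and 13.4% of all probes. Of 13 genes of mitochondrial import and the outer membrane 2 and 3 rose, and of 5 genes around Complex III and cytochrome c 2 and 0 rose. Among 15 regulators of mitochondrial biogenesis 5 fell and 1 rose along the coronal axis under both scalings. Of all probes 9.44% fell and 18.9% rose there before quantile normalization, and 11.1% and 12.5% after it. The median coronal slope of the 15 genes was 0.016 before it. With sagittal distance 4 rose and 4 fell, against 18.3% and 9.97% of all probes. After quantile normalization 3 rose and 5 fell, against 13.4% and 10.6%. The estrogen-related receptors Esrrb and Esrrg had the largest coronal falls, at -0.372 (limma adjusted p = 5.08e-06) and -0.18 (limma adjusted p = 0.00315). The coactivator Ppargc1b followed at -0.088 (limma adjusted p = 0.00781).

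Promoter sequences from RefSeq (GRCm38.p6) were found for 54 of the 68 member genes. The 250 bases before the start are shown for Cox6a1 and Ndufa11, which rose along the coronal axis with many other members. They are also shown for Sdhd, which fell after quantile normalization, and for the tissue isoform Cox8b. Cox6a1 and Cox8b are isoforms of different Complex IV subunits and not counterparts of each other. Capitals mark the letters GCGCATGCG, the core of the NRF1 site, or CCGGAAG, the core of an ETS site, on either strand, with overlapping matches merged. The windows are chr5:115348959-115349208 (minus strand) for Cox6a1, chr17:56717512-56717761 (plus strand) for Ndufa11, chr9:50603850-50604099 (minus strand) for Sdhd and chr7:140900447-140900696 (minus strand) for Cox8b.
Cox6a1: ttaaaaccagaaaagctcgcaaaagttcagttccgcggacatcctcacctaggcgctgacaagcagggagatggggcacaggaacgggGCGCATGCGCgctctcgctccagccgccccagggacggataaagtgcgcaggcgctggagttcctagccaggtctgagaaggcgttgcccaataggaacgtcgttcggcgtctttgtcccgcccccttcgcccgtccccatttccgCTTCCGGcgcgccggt
Ndufa11: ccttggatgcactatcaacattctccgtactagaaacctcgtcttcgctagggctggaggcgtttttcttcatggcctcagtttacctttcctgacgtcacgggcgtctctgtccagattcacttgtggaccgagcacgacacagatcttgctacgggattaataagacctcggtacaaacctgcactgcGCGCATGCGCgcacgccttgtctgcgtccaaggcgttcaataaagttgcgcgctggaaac
Sdhd: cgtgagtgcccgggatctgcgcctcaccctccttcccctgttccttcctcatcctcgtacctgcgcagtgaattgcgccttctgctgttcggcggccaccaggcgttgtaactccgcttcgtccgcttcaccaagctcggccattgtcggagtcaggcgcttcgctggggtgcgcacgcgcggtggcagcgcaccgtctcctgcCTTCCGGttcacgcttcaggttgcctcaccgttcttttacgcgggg
Cox8b: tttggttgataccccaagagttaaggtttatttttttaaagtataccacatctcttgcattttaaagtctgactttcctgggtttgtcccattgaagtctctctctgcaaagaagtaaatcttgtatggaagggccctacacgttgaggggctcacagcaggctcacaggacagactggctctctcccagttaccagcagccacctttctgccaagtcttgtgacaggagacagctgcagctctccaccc
The Cox8b window holds neither motif and 1 CG dinucleotide, whereas that of Cox6a1 holds 26, that of Ndufa11 20 and that of Sdhd 27. The median was 14 for member genes and 6 for all, so Cox6a1, Ndufa11 and Sdhd lie above the member median. The windows of Sdha and Uqcrfs1, which are not shown, hold neither motif, with 21 and 23 CG dinucleotides. GCGCATGCG was found in 3 of the 54 member genes (5.56%) and in 1.64% of all 27025 genes with such a window, and CCGGAAG in 8 (14.8%) and 7.83%. AAGATGGCG, the core of the YY1 site, was in 0 and in 0.71%, and AAGGTCA, the estrogen-related receptor core, in 3 (5.56%) and 4.7%. The window was set to 250 bases after counts with the 50 bases behind the start had been seen. With those bases included, GCGCATGCG was in 5 member genes, CCGGAAG in 11, AAGATGGCG in 5 (9.26%, against 1.64% of all genes) and AAGGTCA in 4, so the count for the YY1 letters depends on the window. A match is a run of letters and not a measured binding site.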

How the data were processed

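RNA of 34 brain fractions was labelled and hybridised to single-colour Agilent mouse arrays. The authors scanned them with Agilent Feature Extraction 10.10.1.1, and the deposited files hold the processed, background-corrected intensity of each spot. The deposited value table, used as an alternative, holds log2 values of 43199 probes. Up to 1 constant per array, within 0.0122 of its 75th percentile, 99.9% of them lay within 0.02 of log2 intensity. Here spots of a probe were averaged, log2 was taken and the 75th percentile of each array subtracted. Detection required the scanner's above-background mark on over 50% of the spots of a probe. Probes were named by accession through a RefSeq table, used for names only. Slopes over the 15 coronal and 8 horizontal fractions, over distance from sagittal fraction 6, and differences of mirror fractions were fitted with limma 3.58.1 in R 4.3.3, with Benjamini-Hochberg adjustment over all 34186 tested probes. Fits were tested on simulated data. Groups came from the labels. Precision is limited by the number of arrays, 1 per fraction. The members and gene lists were chosen with earlier results of these data known. Named were the catalytic subunits (1 is not reported here), Complex II, the isoforms with their counterparts, the 4 largest slopes per direction, the extremes of SD and up to 3 genes per list. Alternatives were array median, quantile and member-median scaling, normexp background, detection filters, limma-trend, slide or slide column as a block or within slides, a spline, and leaving out fractions. Python 3.11.15 with numpy 2.4.6 and pandas 2.3.3 made the summaries.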

Additional observations from a re-analysis of the deposited data

Results flagged for a closer look

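The 180 groups were the 8 horizontal values and the 5 mirror differences of each tested member and each complex mean. In 2 of them the extreme value stood apart by Dixon's criterion. Chance gives about 1 in 20, so fewer groups were flagged than chance gives. For Ndufb2, a supernumerary subunit of Complex I, sagittal fraction 10 less fraction 2 was -0.43 log2 for the probe A_55_P2119420, against 0.01 to 0.16 for the other mirror pairs, a gap of 0.746 of the range. For the probe A_55_P2098802 of Uqcrq, a small subunit of Complex III, the same pair gave -0.32 against -0.07 to -0.03, a gap of 0.871 of the range.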

How the results depend on the processing

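For the coronal trend, 38 member probes were called. The count was 8 after quantile normalization, 0 with the slide as a block and 8 within slide 2. Under alternatives chosen after seeing the data it was 7 with member-median scaling, 1 within slide 3, 0 with quantile normalization and the slide block, 4 and 1 with quantile normalization within slides 2 and 3, and 31 with the slide column as a block (4 when quantile-normalized). Leaving out 1 fraction gave 23 to 41, with the lowest count without coronal fraction 15. For sagittal distance, 27 were called. The count was 53 with the array median, 10 after quantile normalization, 12 with no detection filter, 2 with a spline, 1 with the slide as a block, 1 within slide 4, 2 without fractions 1 and 11, and 11 without slide 5, which holds fractions of all 3 series. Alternatives chosen after seeing the data gave 17 with the slide column as a block (8 when quantile-normalized), 5 with member-median scaling, 1 with quantile normalization within slide 4 and 1 with it without fractions 1 and 11. Leaving out 1 fraction gave 7 to 36, with 9, 10 and 7 without fractions 1, 6 and 11. For the horizontal trend and the sagittal side, the count was 0 under every alternative run, and from 0 to 0 with a fraction left out. Of member pairs 12.0% reached an r of 0.85, and 0.468% after quantile normalization, 5.62% with normexp background and 4.49% by Spearman's rho.

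Within slide 2 the coronal slope turned for Cox4i1 (-0.013, and -0.018 quantile-normalized), Ndufa4l2 (-0.031 and -0.032) and the dimmer probe of Ndufb11 (-0.065 and -0.062, both called), and for the dimmer probe of Sdhb when quantile-normalized (-0.008). With sagittal distance Ndufb8 turned from 0.012 to -0.061 after quantile normalization, and to -0.061 with the slide column as a block as well. The cause was not tested. No paired analysis was possible because the replicate numbers are positions along different axes of different brains. Single-fraction removal was not run on quantile-normalized values.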
